A study of Mus musculus with 24 samples.

Results

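The constitutive proteasome genes were followed in 24 Lewis Lung Cancer tumours. Members were the protein-coding genes of the deposited table whose symbol is Psm, a letter from a to g and a number, leaving out the immunoproteasome catalytic genes Psmb8, Psmb9 and Psmb10. This gave 47 of the 18723 genes listed, of which 14585 are protein coding. They were 7 alpha-ring and 7 beta-ring genes of the 20S core, 17 genes of the 19S regulatory particle (6 ATPases, 3 other base subunits and 8 lid subunits), 4 activator genes, 7 assembly chaperones and 1 inhibitor. The rule left out the 19S subunit genes Adrm1 and Sem1, whose symbols differ. They are counted with the other genes of the pathway. The rule also took in Psma8, an alpha subunit of the testis, and Psme2b, a near copy of Psme2. Psmc3ip and Psme3ip1 were taken in too, which share the name stem but are no proteasome subunits.

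The tumours were grown from a mouse lung adenocarcinoma line in wild-type (WT) mice and profiled by bulk RNA-seq, 8 tumours in each of 3 groups. Vehicle mice had vehicle alone. In the dual group, intratumoral poly I:C (50 ug; days 11 and 15), which mimics viral double-stranded RNA, was combined with intraperitoneal anti-PD-1 (100 ug; days 7, 10 and 14), a checkpoint antibody. Mice of the triple group had these agents together with C5aR1 blockade, labelled anti-C5aR1 and read here as the PMX53 of the protocol (1 mg/kg, subcutaneous, daily, first on day 6). The line is a single cell line, the host cells of the tumour were sequenced with it, and the labels give no age or sex.

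The proteasome is the barrel-shaped protease that degrades ubiquitin-tagged proteins in the cytosol and nucleus. The alpha rings of the 20S core gate the barrel, the beta rings hold the proteolytic sites, and the 19S particle binds ubiquitin chains, removes them and unfolds the substrate with its ATPase ring. After interferon signalling, Psmb8, Psmb9 and Psmb10 replace the constitutive catalytic subunits Psmb5, Psmb6 and Psmb7 in newly built cores, which changes the peptides offered on MHC class I.

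Reads assigned to genes ran from 14438318 to 19254090 per tumour. The numbers after S in the tumour names, read here as library numbers, formed blocks, 1 block to a group. Any effect of library preparation or order that follows them cannot be told apart from treatment. Separate mouse numbers are the only sign that tumours came from separate animals, and p-values measure the spread between these tumours. Skeletal muscle markers (20 of 20 listed) took 0.0179 to 0.0633% of reads in vehicle, 0.0262 to 0.102% in dual and 0.0266 to 0.271% in triple tumours, and 5 triple tumours (T_352_S48, T_353_S45, T_354_S47, T_355_S43 and T_362_S42) exceeded every tumour of the other groups. Macrophage markers (10 of 10) took 0.151 to 0.224%, 0.128 to 0.178% and 0.123 to 0.623%, and neutrophil markers (9 of 10, Camp not listed) 0.00261 to 0.00994%, 0.0432 to 0.0891% and 0.0209 to 0.180% in the same order. Adipocyte markers (10 of 11, Lep not listed) took 0.00345 to 0.00854%, 0.00642 to 0.0168% and 0.00801 to 0.0695%. The 5 muscle-rich triple tumours were also high in other markers: macrophage markers took 0.205 to 0.623% in them and 0.123 to 0.231% in the other 3, and adipocyte markers 0.0162 to 0.0695% and 0.00801 to 0.0238%. Leaving them out therefore changes more than the muscle share. Of the epithelial lung markers, Nkx2-1, Sftpb and Sftpc are not listed, Epcam had a median of -3.43 over the 24 tumours and Krt18 one of 4.87 in log2 CPM, the log2 of reads scaled to a common library size. In bulk tumours, fewer cells of a type and less RNA per cell cannot be told apart.

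Sequence around the start was compared first, because most 19S genes with a promoter entry share a short word there. RefSeq promoter entries (build GRCm38.p6, 250 bases before to 50 bases after the start) matched 39 of the 47 members with 43 start sites. The word CCGGAAG, a core that ETS-family transcription factors are known to bind, was searched on both strands. It lay in 10 of 15 promoters of 19S genes (66.7%, from 9 of 14 genes with an entry) and in 1 of 12 promoters of 20S genes (8.33%). It lay in 8.86% of all 32851 promoters and in 19.2% of those of protein-coding genes at or above the median expression of the table. Mean GC content was 59.0% in 19S promoters, 57.4% in 20S promoters and 61.2% in that expressed set. The stretches below hold the word in capitals (CTTCCGG is the same word on the other strand) in Psmd11, Psmd2 and Psmc2, each the leading gene of its role in a comparison, in Psmd12, in Psmc6, whose level did not pass the test, in Psme3 and in Psma6, the only one with it among the 11 genes of the 20S core with an entry.

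Psmd11: aacgcgagggcgggtCTTCCGGgtgt
Psmd2: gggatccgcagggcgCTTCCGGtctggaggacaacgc
Psmc2: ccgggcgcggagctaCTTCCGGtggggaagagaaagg
Psmd12: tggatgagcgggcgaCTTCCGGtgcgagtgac
Psmc6: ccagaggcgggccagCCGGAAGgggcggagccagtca
Psme3: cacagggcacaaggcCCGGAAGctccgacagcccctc
Psma6: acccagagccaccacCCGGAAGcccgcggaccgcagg

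Each is written along its gene's strand, here the plus strand for all 7, at chr11:80428589-80428614 (Psmd11), chr16:20651611-20651647 (Psmd2), chr5:21786708-21786744 (Psmc2), chr11:107479496-107479527 (Psmd12), chr14:45329709-45329745 (Psmc6), chr11:101316091-101316127 (Psme3) and chr12:55398678-55398714 (Psma6). The word starts 11 bases before the annotated start in Psmd11, 26 in Psmd2, 24 in Psmc2 (the nearer of its annotated starts; the other holds the word too), 17 in Psmd12, 100 in Psmc6, 107 in Psme3 and 132 in Psma6. A match is a description of letters, not of a bound site. A further word, TGACNNNGC, the core of the antioxidant response element, lay in 14.0% of the members' promoters, in 12.4% of all promoters and in 14.5% of those of the expressed protein-coding set. Among the constitutive catalytic genes it lay 47 bases before the start of Psmb5 and 9 bases before that of Psmb6, in these stretches (GRCm38.p6, chr14:54618019-54618057, minus strand, and chr11:70525333-70525356, plus strand), with the word in capitals.

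Psmb5: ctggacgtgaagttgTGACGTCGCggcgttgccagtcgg
Psmb6: gcggactaaagagagTGACGGAGC

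CCAAT lay in 32.6% of members' promoters against 37.4% of all, and the heat-shock-type word TTCNNNGAA in 4.65% against 8.30%. The core of the interferon-stimulated response element, a pair of GAAA words, lay in 11.6% against 3.44%. These were 5 of 43 promoters, of Psmb3, Psmd4, Psmd9, Psme1 and Psmg4. Among promoters of 20S and 19S subunits it lay in 2 of 27, and among those of the immunoproteasome genes in 0 of 3.

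In vehicle tumours all 31 subunit genes of the core and the 19S particle among the members were expressed. Compared per length, as CPM per kb of exon, the 14 genes of the 20S core ran from 30.3 ± 2.1 (SD, n = 8) for Psma3 to 114 ± 8.9 (SD, n = 8) for Psma6. The 17 genes of the 19S particle ran from 16.1 ± 0.61 (SD, n = 8) for the lid gene Psmd11 to 88.5 ± 7.7 (SD, n = 8) for the ATPase gene Psmc5. The interferon-inducible activator genes Psme1 and Psme2, which form the PA28 ring, stood at 92.2 ± 13 and 79.7 ± 15 (SD, n = 8). Psme3, which encodes the nuclear form of that activator, stood at 47.95 ± 2.8 and Psme4, the gene of the large activator PA200, at 15.9 ± 1.1 (SD, n = 8). The chaperone genes ran from 4.99 for Psmg3 to 34.4 for Psmg4, and Psmf1, the gene of the inhibitor PI31, stood at 7.03. Exon length is the union of all annotated exons in GENCODE M21, which counts rarely used exons too, so a gene with a long rare exon is placed too low. Psma8 held 0 to 18 reads per tumour and is not interpreted further.

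**Figure D1:**
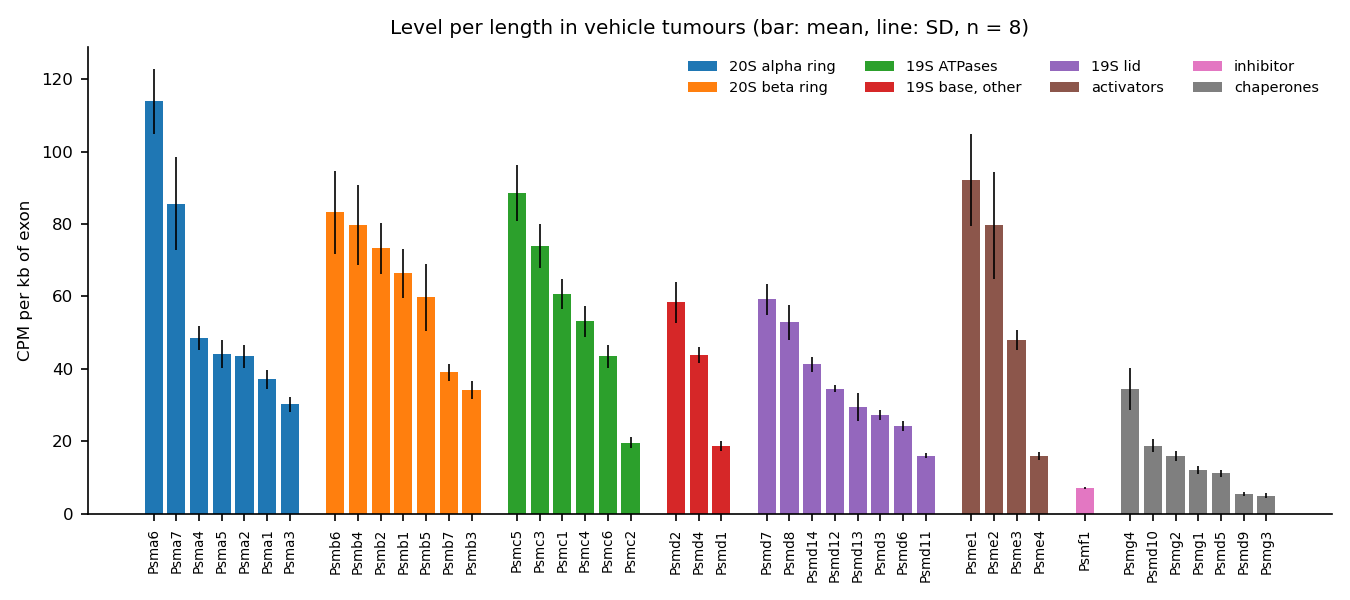
Level of each proteasome gene in vehicle tumours in CPM per kb of exon; bars are means of 8 tumours, lines are SD, and colours mark the role of the gene. Psma6 at 114 is the highest bar, the chaperones lie at 4.99 to 34.4.

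Under dual treatment 22 of the 47 members rose and 0 fell, against 15.0% of all genes higher and 15.8% lower (limma with Benjamini-Hochberg adjustment over all genes, adjusted p under 0.05). At an unadjusted p under 0.05 the same test gave 0 members lower, where the share of all genes is not given. An exact Wilcoxon test called 27 higher and 0 lower, beside 18.4% and 18.8% of all genes. The members' median log2 fold change was 0.23, and that of all genes at or above median expression was 0.04. The change lay more with the regulatory particle than with the core: 13 of 17 genes of the 19S particle rose, with a median of 0.36, and 5 of 14 genes of the 20S core rose, with a median of 0.12. That difference between the lists carries no test. In 6 members, namely Psmd2, Psmd3, Psmd7, Psmd11, Psmd12 and Psme3, every dual tumour lay above every vehicle tumour, which held for 5.81% of all genes.

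Psmd11, a lid subunit that helps hold the lid, base and core together, showed the largest rise in the dual group. It lay at 6.58, 6.69 and 6.78 log2 CPM (lowest, median and highest) in vehicle tumours, at 7.00, 7.28 and 7.47 in dual tumours, and at 6.85, 7.14 and 7.33 in triple tumours. The vehicle tumours sat lowest and did not overlap either treated group, while the dual and triple tumours overlapped. The rise in dual was 0.60 ± 0.07 on the log2 scale (SE; 1.52-fold; adjusted p = 2.7e-06 in limma), with 8 of 8 dual tumours above the vehicle median. The gene lies at chr11:80319441-80364074 (plus strand, GRCm39), and leaving out any tumour left its rise between 0.57 and 0.64.

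Psmd1, the scaffold subunit of the base, lay at 6.86, 7.12 and 7.23 log2 CPM in vehicle and at 7.22, 7.58 and 7.71 in dual tumours, and rose by 0.45 ± 0.07 (SE; adjusted p = 6.8e-05 in limma). Its lowest dual tumour lay level with the highest vehicle tumour. Psmc5, an ATPase of the ring, lay at 6.76, 6.91 and 7.12 in vehicle and at 7.04, 7.39 and 7.55 in dual, and rose by 0.44 ± 0.08 (SE; adjusted p = 0.00013 in limma). At the low end the dual tumours overlapped the vehicle range.

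Psmd14, the lid metalloprotease that cuts ubiquitin chains off the substrate, lay at 6.76, 6.86 and 6.94 in vehicle and at 6.92, 7.24 and 7.36 in dual tumours, and rose by 0.37 ± 0.08 (SE; adjusted p = 0.0013 in limma). Psmd4, a ubiquitin receptor of the base, lay at 6.86, 6.94 and 7.10 in vehicle and at 7.02, 7.29 and 7.47 in dual tumours, and rose by 0.33 ± 0.07 (SE; adjusted p = 0.0012 in limma). In both, 8 of 8 dual tumours lay above the vehicle median. Of the 4 genes of the 19S particle that were not called, Psmd6 stood at 0.14, Psmd13 at 0.08, Psmc3 at 0.07 and Psmc6 at 0.05 on the log2 scale. Among 19S genes with a promoter entry, the 9 with CCGGAAG had a median of 0.33 in dual against vehicle, with 6 called, and the 5 without it had a median of 0.37, with 5 called.

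In the 20S core the genes called were Psma3, Psma5, Psma6, Psmb3 and Psmb5. The largest was the alpha-ring gene Psma3, which lay at 6.73, 6.87 and 7.03 log2 CPM in vehicle and at 6.89, 7.28 and 7.41 in dual tumours. It rose by 0.37 ± 0.08 (SE; adjusted p = 0.0012 in limma), with 8 of 8 dual tumours above the vehicle median. Psmb5, which carries the chymotrypsin-like site, lay at 5.42, 5.70 and 6.15 in vehicle and at 5.72, 6.04 and 6.54 in dual tumours. The groups overlapped over much of their range. It rose by 0.36 ± 0.12 (SE; adjusted p = 0.026 in limma), and the call was lost when any of 3 tumours was left out, with adjusted p up to 0.0595. Psmb6, which carries the caspase-like site, lay at 7.12, 7.23 and 7.67 in vehicle, at 7.06, 7.28 and 7.80 in dual and at 6.93, 7.11 and 7.62 in triple tumours. Psmb7, which carries the trypsin-like site, lay at 6.92, 7.06 and 7.20, at 6.89, 7.15 and 7.50 and at 6.60, 6.94 and 7.23. In both genes all 3 groups overlapped, and in dual Psmb6 stood at 0.08 ± 0.10 and Psmb7 at 0.11 ± 0.09 (SE), neither past the test.

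Of the activators, Psme3 lay at 7.03, 7.14 and 7.29 log2 CPM in vehicle, at 7.46, 7.71 and 7.83 in dual and at 7.10, 7.54 and 7.69 in triple tumours. No dual tumour overlapped the vehicle tumours, and 1 triple tumour, T_352_S48, lay within them. Psme3 rose by 0.55 ± 0.07 in dual (SE; adjusted p = 8.2e-06 in limma). Psme1 lay at 7.33, 7.68 and 7.96 in vehicle, at 7.61, 7.97 and 8.09 in dual and at 7.35, 7.98 and 8.36 in triple tumours, and Psme2 at 6.69, 7.16 and 7.55, at 6.66, 7.26 and 7.39 and at 6.62, 7.30 and 7.71. Their groups overlapped throughout. In dual, Psme1 stood at 0.27 ± 0.11 (adjusted p = 0.053), Psme2 at 0.10 ± 0.13 (adjusted p = 0.61) and Psme4 at 0.14 ± 0.06 (adjusted p = 0.091; SE, limma), and none of these passed the test. Psme1 did pass when any of 6 tumours was left out, with adjusted p down to 0.020. Whether the activators differed from each other was not tested.

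Psmf1 lay at 5.40, 5.48 and 5.64 log2 CPM in vehicle, at 5.59, 5.69 and 5.78 in dual and at 5.37, 5.75 and 5.93 in triple tumours. In dual it stood at 0.19 ± 0.07 (SE; adjusted p = 0.057 in limma), with 8 of 8 dual tumours above the vehicle median. Of the 7 chaperones, Psmg3, which acts in alpha-ring assembly, rose by 0.36 ± 0.13 (SE; adjusted p = 0.036 in limma) and Psmd5, a chaperone of the base, rose by 0.33 ± 0.12 (SE; adjusted p = 0.046 in limma). Psmg3 lay at 3.58, 3.85 and 4.16 log2 CPM in vehicle and at 3.89, 4.14 and 4.57 in dual tumours, so the groups overlapped, and leaving out any of 7 tumours ended its call (adjusted p up to 0.082). Psmg1, another alpha-ring chaperone, stood at 0.16 ± 0.09 (SE; adjusted p = 0.20 in limma). Psme3ip1, whose product binds the Psme3 protein, rose by 0.23 ± 0.07 (SE; adjusted p = 0.010 in limma).

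**Figure D2:**
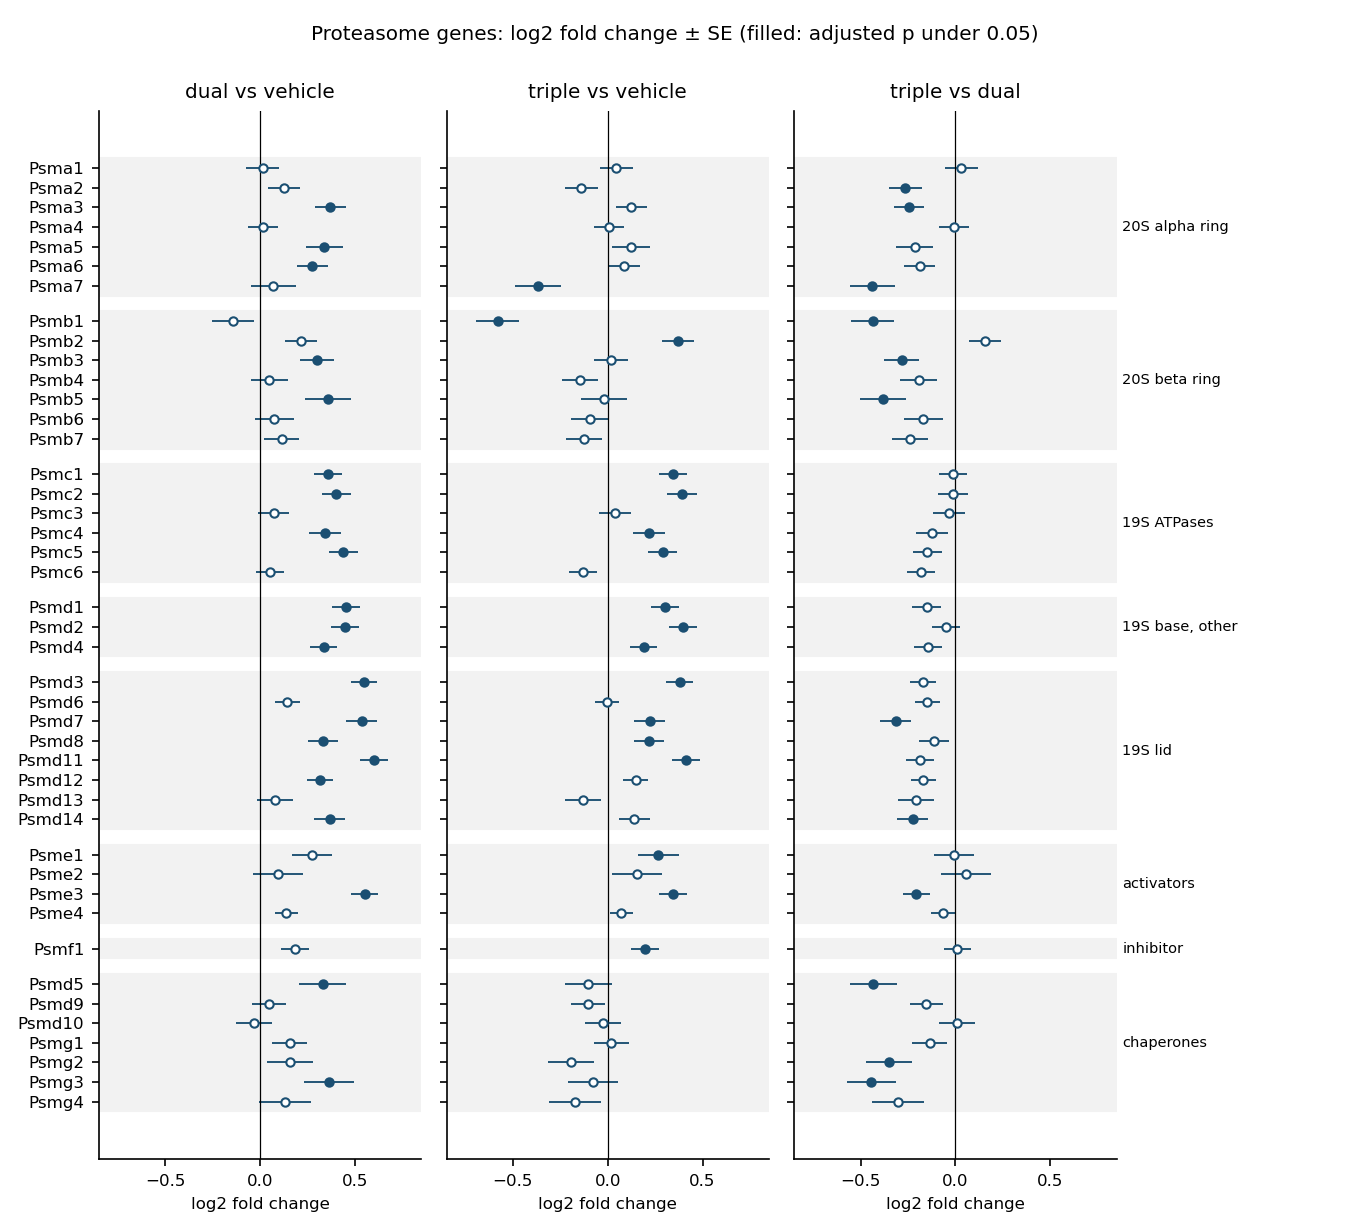
Log2 fold change with SE of 43 proteasome genes for dual against vehicle, triple against vehicle and triple against dual, 8 tumours per group; filled points passed an adjusted p of 0.05 in limma. Filled points on the right of 0 lie mostly in the 19S rows of the left and middle panels, and in the right panel the filled points lie on the left of 0.

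Under triple treatment 17 members rose and 2 fell against vehicle, beside 23.0% of all genes higher and 22.8% lower. Of these, 11 of 17 genes of the 19S particle rose (median 0.22) and 1 of 14 genes of the 20S core, Psmb2, rose, while Psmb1 and Psma7 fell (core median -0.01). Quantile normalization gave 9 higher (19.1% of members, near the 19.7% of all genes then higher) and 5 lower (beside 28.7%). Median centring gave 10 higher (21.3% of members, near the 19.4% of all genes) and 2 lower (beside 25.4%). Leaving out triple tumour T_354_S47 gave 11 higher, where the share of all genes is not given. Without the 5 muscle-rich tumours the counts were 17 higher and 1 lower, beside 15.2% and 15.2% of all genes. With a muscle score term they were 11 higher and 1 lower, beside 11.5% and 11.4% of all genes. Both treated groups were set against the same vehicle tumours.

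Psmd11 rose by 0.41 ± 0.07 in triple (SE; adjusted p = 8.7e-05 in limma), and by 0.50 without the 5 muscle-rich tumours. Psmd2, a scaffold subunit of the base, lay at 7.62, 7.89 and 8.02 log2 CPM in vehicle and at 8.13, 8.29 and 8.43 in triple tumours without overlap, and rose by 0.40 ± 0.07 (SE; adjusted p = 0.00013 in limma). Psmc2, an ATPase, lay at 6.43, 6.65 and 6.79 in vehicle and at 6.77, 7.04 and 7.27 in triple tumours, and rose by 0.39 ± 0.08 (SE; adjusted p = 0.00035 in limma). The lowest triple tumour for Psmc2, T_355_S43, lay just inside the vehicle range. Psmd4 rose by 0.19 ± 0.07 (SE; adjusted p = 0.038 in limma), and leaving out any of 9 tumours ended that call, with adjusted p up to 0.093. Psmd14 stood at 0.14 ± 0.08 (SE; adjusted p = 0.16 in limma). It was called without the 5 muscle-rich tumours, at 0.27 (adjusted p = 0.020 in limma). Among the fits with 1 tumour left out, 1 called it (adjusted p = 0.047 in limma).

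Psmb1 and Psma7 went the other way and were singled out after their values were seen. Psmb1, a beta-ring subunit without a catalytic site, lay at 8.03, 8.28 and 8.50 log2 CPM in vehicle, at 7.70, 8.16 and 8.53 in dual and at 7.25, 7.70 and 7.98 in triple tumours. The triple tumours all lay below the vehicle tumours, and the dual tumours overlapped both. It fell by 0.58 ± 0.11 in triple (SE; adjusted p = 0.00025 in limma), with -0.42 without the 5 muscle-rich tumours (adjusted p = 0.019 in limma). Psma7, an alpha-ring subunit, lay at 7.73, 8.01 and 8.39 in vehicle and at 7.13, 7.74 and 8.05 in triple tumours, overlapping in range. It fell by 0.37 ± 0.12 (SE; adjusted p = 0.014 in limma), and stood at -0.17 without the 5 muscle-rich tumours (adjusted p = 0.34 in limma). Psmb1 lies at chr17:15695283-15720013 and Psma7 at chr2:179678167-179684226, both on the minus strand of GRCm39.

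Psme3 rose by 0.35 ± 0.07 in triple (SE; adjusted p = 0.00056 in limma), Psme1 by 0.27 ± 0.11 (SE; adjusted p = 0.044 in limma) and Psmf1 by 0.20 ± 0.07 (SE; adjusted p = 0.031 in limma). The Psme1 call was lost when any of 9 tumours was left out, with adjusted p up to 0.11, and that of Psmf1 when any of 6 was, with adjusted p up to 0.071. Psme2 stood at 0.15 ± 0.13, Psme4 at 0.07 ± 0.06 and Psmg1 at 0.02 ± 0.09 (SE), and none passed the test. None of the 7 chaperones passed the test, and their median was -0.10. Psme3ip1 rose by 0.31 ± 0.07 (SE; adjusted p = 0.00064 in limma). Psme2b rose by 0.54 ± 0.22 (SE; adjusted p = 0.043 in limma), but 76.5% of its 31-base words also occur in Psme2, so reads of the 2 genes can be mistaken for each other, and without the 5 muscle-rich tumours it stood at 0.11.

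**Figure D3:**
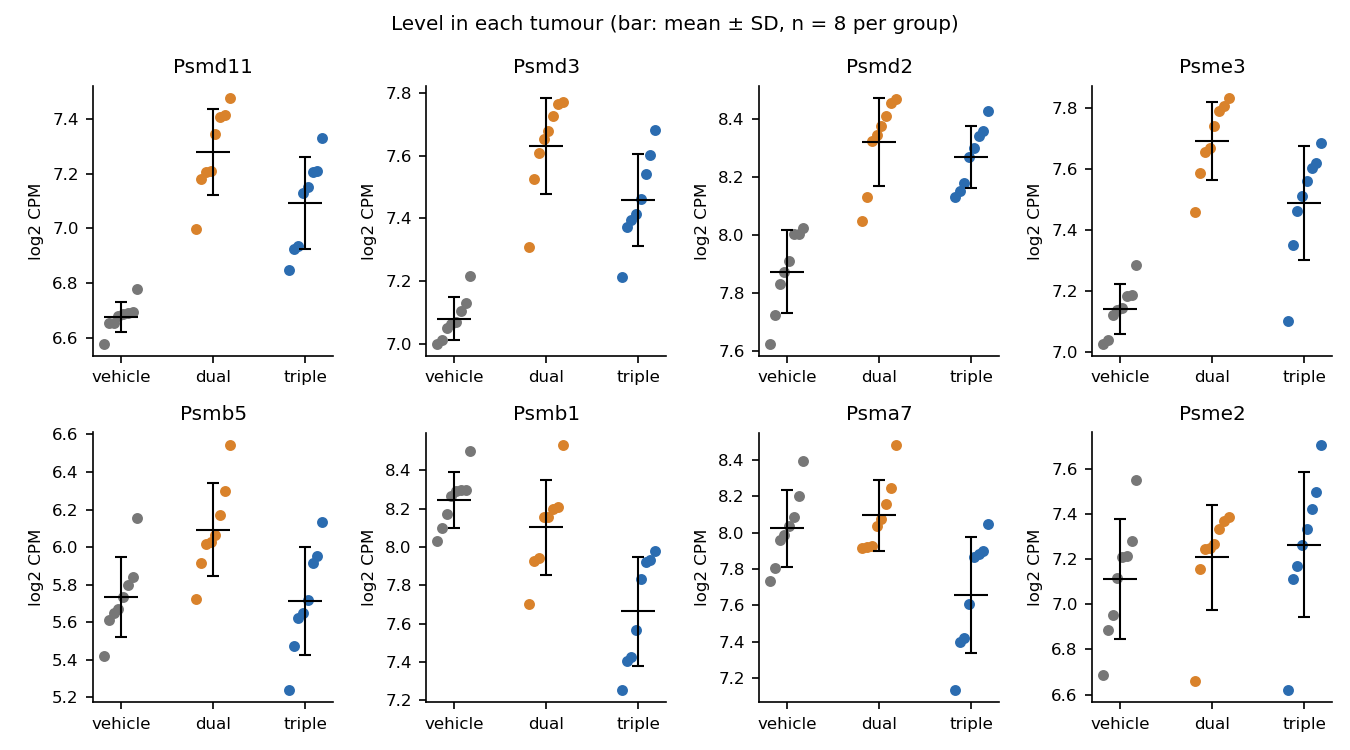
Log2 CPM of 8 named members in each tumour by group; points are tumours, bars are mean and SD of 8 tumours. Psmd11, Psmd3, Psmd2 and Psme3 lie higher in the dual than in the vehicle tumours without overlap, Psmb1 lies lower in the triple than in the vehicle tumours, and Psme2 overlaps in all 3 groups.

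Triple against dual, the comparison for the addition of C5aR1 blockade, gave 1 member higher, Psme2b, and 12 lower, beside 11.4% and 9.97% of all genes. The 12 were Psma2, Psma3, Psma7, Psmb1, Psmb3, Psmb5, Psmd7, Psmd14, Psme3, Psmd5, Psmg2 and Psmg3. The 20S core had 6 of 14 members lower (median -0.23) and the 19S particle 2 of 17 (median -0.15). The count of lower members was 5 without D_344_S33, D_368_S36, T_352_S48, T_353_S45 or T_355_S43, left out one at a time. Median centring gave 27 lower (57.4% of members, beside 15.9% of all genes) and tumour weights 26 (55.3%, beside 13%). The fit on both groups alone gave 3 (6.38%, beside 3.03%), and the exact Wilcoxon test 1 (2.13%, near the 2.31% of all genes). With 1 tumour left out, members lower numbered 8 without D_359_S39, D_366_S34 or D_367_S35, 21 without D_370_S38 and 19 without T_331_S44. Without C_339_S25 or C_351_S29 the count was 10, beside 9.54% and 9.14% of all genes. For the other fits with 1 tumour left out, the share of all genes is not given. Those counts therefore do not show whether members moved more than all genes did. Psme2b was not called without 1 of C_361_S32, D_344_S33, D_357_S37, D_366_S34, D_367_S35, D_368_S36, D_370_S38, T_352_S48, T_353_S45, T_355_S43 and T_360_S46. Without the 5 muscle-rich triple tumours the counts were 0 and 0, and so they were in a fit with a muscle score term, as few of any genes were then called (0.0107% higher and 0% lower, and 0.235% and 0.187%).

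Psma7 lay at 7.91, 8.05 and 8.48 log2 CPM in dual tumours and at 7.13, 7.74 and 8.05 in triple tumours, and differed by -0.44 ± 0.12 (SE; adjusted p = 0.015 in limma). Psmb1 differed by -0.44 ± 0.11 (SE; adjusted p = 0.012 in limma), Psmd7, a lid partner of Psmd14, by -0.32 ± 0.08 (SE; adjusted p = 0.013 in limma) and Psmg3 by -0.44 ± 0.13 (SE; adjusted p = 0.022 in limma). In each, the ranges of the groups overlapped, and 7 or 8 of 8 triple tumours lay below the dual median. Psmb5 fell by 0.38 ± 0.12 (SE; adjusted p = 0.029 in limma), Psmd14 by 0.23 ± 0.08 (SE; adjusted p = 0.047 in limma) and Psme3 by 0.21 ± 0.07 (SE; adjusted p = 0.047 in limma). Leaving out 1 tumour ended the call for 5 tumours in Psmb5, 19 in Psmd14 and 20 in Psme3, with adjusted p up to 0.066, 0.11 and 0.10. Without the 5 muscle-rich tumours, Psma7 stood at -0.24, Psmb1 at -0.28, Psmd7 at -0.21, Psmg3 at -0.24, Psmb5 at -0.25, Psmd14 at -0.10 and Psme3 at -0.06. None was then called, with adjusted p from 0.48 (Psmd7) to 0.85 (Psme3) in limma. With the muscle score term none was called either, with adjusted p from 0.11 (Psmd7) to 0.29 (Psme3) in limma. Psmb6 stood at -0.17, Psmb7 at -0.24, Psmd4 at -0.15, Psmg1 at -0.14, Psme4 at -0.07, Psme1 at -0.01, Psmf1 at 0.01 and Psme2 at 0.06, and none passed the test.

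The 2 assemblies were also followed tumour by tumour. The mean deviation of the 17 genes of the 19S particle from the vehicle mean ran from -0.09 to 0.09 on the log2 scale in vehicle tumours, from 0.06 to 0.46 in dual tumours and from 0.03 to 0.41 in triple tumours. For the 14 genes of the 20S core it ran from -0.13 to 0.25, from -0.10 to 0.47 and from -0.37 to 0.26. The 19S mean exceeded the 20S mean in 7 of 8 dual tumours, the exception being D_344_S33 at -0.03, and in 8 of 8 triple tumours, by 0.14 to 0.41. It did so in 5 of 8 vehicle tumours, whose differences ran from -0.16 to 0.14. D_370_S38 was the lowest dual tumour in both assemblies, and T_355_S43 was the lowest triple tumour in the core. As shares of all assigned reads, the core took 0.201% ± 0.016, 0.206% ± 0.026 and 0.175% ± 0.024 (SD, n = 8) in vehicle, dual and triple tumours, and the 19S particle 0.229% ± 0.0078, 0.277% ± 0.024 and 0.252% ± 0.025 (SD, n = 8). These are descriptions of chosen lists without a test. The muscle, macrophage, neutrophil and adipocyte marker shares given above also differed between the groups, and their part in these values was not tested.

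**Figure D4:**
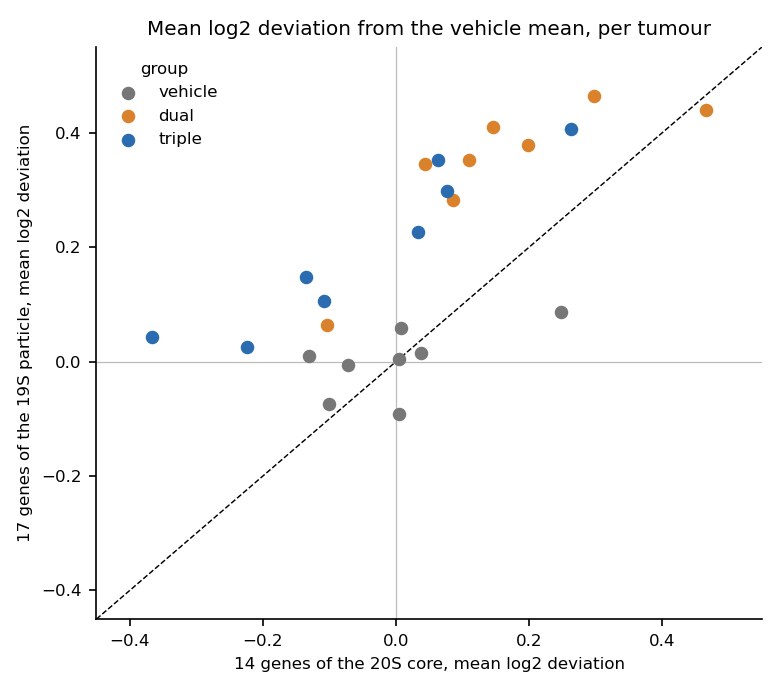
Mean log2 deviation from the vehicle mean of the 14 genes of the 20S core (horizontal) and of the 17 genes of the 19S particle (vertical), 1 point per tumour, coloured by group, with the line of equal deviation dashed. All 8 triple tumours and 7 of 8 dual tumours lie above the line.

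Within groups the subunit genes varied together. After removing group means, the median pairwise correlation over the 24 tumours was 0.77 among the 14 core genes, 0.69 among the 17 genes of the 19S particle, 0.59 between core and 19S particle and 0.70 among the 7 chaperones, against 0.03 over 9362 genes at or above median expression. The 4 activator genes had a median of 0.00, although Psme1 and Psme2 reached 0.89. Of the 31 subunit genes, Psmc4 followed the other subunits most closely, with a median of 0.77, and Psmd8 least, with 0.29. The points share library, tumour and scaling, and no p is given.

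The catalytic subunits were compared with their immunoproteasome counterparts as the log2 difference within a tumour, which does not depend on library scaling. Psmb5 minus Psmb8 ran over -1.04, -0.76 and -0.15 (lowest, median and highest) in vehicle tumours, -0.93, -0.65 and -0.04 in dual tumours and -2.56, -1.72 and -0.57 in triple tumours. Most triple tumours lay below the other groups, with overlap at their upper end. Triple differed from vehicle by -0.96 (adjusted p = 0.0056) and from dual by -1.05 (adjusted p = 0.0056), with 7 of 8 triple tumours below each other median, in a two-sided exact permutation test over 12870 assignments adjusted over 9 tests. Psmb6 minus Psmb9 gave -0.88 (adjusted p = 0.011) and -0.82 (adjusted p = 0.0056) in the same exact test. Psmb7 minus Psmb10 gave -0.64 (adjusted p = 0.0056) and -0.51 (adjusted p = 0.011) in the same exact test. The dual mean minus the vehicle mean was 0.09, -0.05 and -0.13, with exact permutation adjusted p of 0.64, 0.79 and 0.50.

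Against vehicle, the larger part of the difference lay in the immunoproteasome gene of each pair. In limma, Psmb8 rose by 0.94 ± 0.21 (SE; adjusted p = 0.00081), Psmb9 by 0.78 ± 0.24 (SE; adjusted p = 0.0093) and Psmb10 by 0.52 ± 0.17 (SE; adjusted p = 0.014) in triple against vehicle. Their constitutive counterparts stood at -0.02 ± 0.12, -0.09 ± 0.10 and -0.13 ± 0.09 (SE) and did not pass the test. Psmb8 stood at 0.51 (adjusted p = 0.105 in limma) without the 5 muscle-rich tumours and at 0.47 (adjusted p = 0.11 in limma) in the fit with a muscle score term. Against dual, Psmb8 rose by 0.67 (adjusted p = 0.026 in limma) and Psmb9 by 0.65 (adjusted p = 0.0496 in limma), and Psmb10 stood at 0.28 and did not pass the test. There Psmb5 fell by 0.38, and Psmb6 stood at -0.17 and Psmb7 at -0.24. In this comparison Psmb8 stood at 0.24 without the 5 muscle-rich tumours (adjusted p = 0.78 in limma). With the muscle score term it stood at 0.37 (adjusted p = 0.27 in limma). Its call was lost when any of 3 tumours was left out, with adjusted p up to 0.0598 in limma. Without the 5 muscle-rich triple tumours, which leaves 3, the 3 differences to vehicle became -0.40, -0.44 and -0.34 and those to dual -0.49, -0.39 and -0.21, with exact permutation adjusted p of 0.37 for each. T cell markers (10 of 10 listed) took 0.00269 to 0.00638%, 0.00291 to 0.00699% and 0.00292 to 0.0157% of reads in vehicle, dual and triple tumours. Within the triple group they took 0.00811 to 0.0157% in the 5 muscle-rich tumours and 0.00292 to 0.00854% in the other 3. Their part in the shift was not tested.

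**Figure D5:**
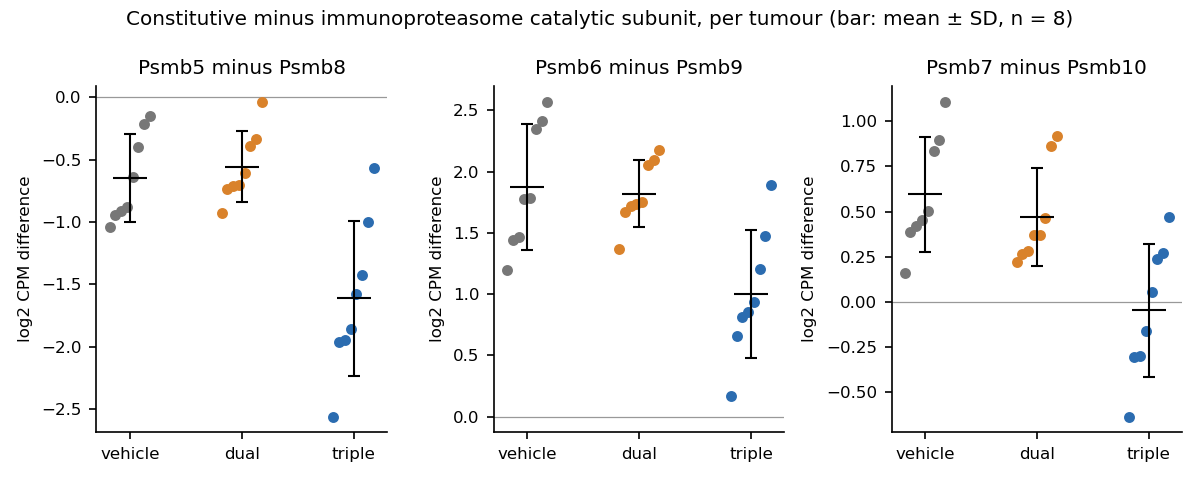
Log2 CPM of each constitutive catalytic subunit minus its immunoproteasome counterpart, 1 point per tumour, by group; bars are mean and SD of 8 tumours. The triple tumours lie lower, from -2.56 to -0.57 for Psmb5 minus Psmb8, and overlap the other groups at their upper end.

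Other genes of the pathway were taken from a list of 29, of which 28 are listed. In limma, 14 rose and 1 fell in dual against vehicle, and 9 rose and 4 fell in triple against vehicle. In triple against dual 0 rose and 6 fell. At an unadjusted p under 0.05, 1 rose in triple against dual, where the share of all genes is not given. The 14 make up 50.0% of the 28, beside 15.0% of all genes, and the 1 that fell 3.57%, beside 15.8%. In triple against vehicle 32.1% rose and 14.3% fell, beside 23.0% and 22.8%. In triple against dual 0% rose and 21.4% fell, beside 11.4% and 9.97%. The ubiquilin gene Ubqln4 rose by 0.51 and the deubiquitinases Uchl5 and Usp14 by 0.48 each in dual. The 19S ubiquitin receptor Adrm1 rose by 0.38 in dual and 0.25 in triple, and Nfe2l1, the transcription factor that induces proteasome genes when proteasome activity falls, rose by 0.27 ± 0.06 and 0.24 ± 0.06 (SE; adjusted p = 0.0020 and 0.0032 in limma). Sem1, which also encodes a 19S subunit, stood at -0.13 in dual against vehicle (adjusted p = 0.26 in limma). In triple against vehicle Sem1 stood at -0.23 and was called lower (adjusted p = 0.032 in limma). Pomp, the chaperone of beta-ring maturation, stood at 0.13 in dual and 0.18 in triple and did not pass the test. Uba1, the main ubiquitin-activating enzyme, rose by 0.48 in triple against vehicle. Rps27a, which encodes a ubiquitin fused to a ribosomal protein, fell by 1.09 ± 0.18 in triple against vehicle (SE; adjusted p = 4.0e-05 in limma) and by 0.78 against dual. Against dual, the shuttle factor gene Rad23b fell by 0.45, Txnl1, a thioredoxin-like partner of the 19S particle, by 0.37 and Usp14 by 0.30.

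The gene spans of 14 members overlap that of another listed gene. The kit keeps strand, but the sources used here do not give the strand setting of the counting, so reads of Psmc3, Psmd1, Psmd3, Psmd13, Psma2, Psma3, Psma4, Psma6, Psmb7, Psme1, Psmd5, Psmc3ip, Psme3ip1 and Psme2b may include reads of a neighbour. In Psmd1, Psmd13, Psma2 and Psme2b a neighbour lies on the same strand.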

How the data were processed

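The deposited table holds log2 values that the authors scaled per library. The values match log2 CPM with an offset of 0.5 reads, and undoing it gave whole reads (within 0.01) for 100% of entries. The submitters' processing notes list the genome build GRCm39 and the tools STAR 2.7.9a, FastQC 0.11.8, limma, edgeR and featureCounts 1.6.0, without their settings. The labels' protocols name a stranded mRNA ligation kit. Totals ran from 14438318 to 19254090 reads, and the scaled library size divided by the total ran from 0.88 to 1.07. This ratio was 1.00 to 1.07 in vehicle, 0.97 to 1.01 in dual and 0.88 to 1.02 in triple tumours. How listed genes were filtered is not stated in the sources used.

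The 3 comparisons were fitted on the deposited log2 values with limma 3.58.1 in R 4.3.3, modelling all 24 tumours by group means, with trended variance and Benjamini-Hochberg adjustment over 18723 genes. Catalytic pairs were tested by two-sided exact permutation with Benjamini-Hochberg adjustment over 9 tests (Python 3.11.15, scipy 1.17.1). Fits were tested on simulated data. Exon lengths came from GENCODE M21, promoters from RefSeq. Gene symbols and GRCm39 coordinates are those of the deposited table.

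The members and lists were chosen with earlier results of these data known. Values are named for the catalytic subunits, activators, Psmf1, Psmd4, Psmd14 and Psmg1, for the called member of each role with the largest change in a comparison, and for Pomp, Nfe2l1, Adrm1, Usp14 and the 3 largest called changes of the other pathway genes. A gene that this rule names is not reported here. Psmb1, Psma7 and Sem1 were added after their values were seen, as were names given in counts of 5 or fewer. So were members outside the rule that are named among the non-overlapping members or among those lower in triple against dual. Alternatives were other variance models, tumour and precision weights, scalings, thresholds, a low-expression filter (25th percentile), an exact Wilcoxon test, 2-group fits, a muscle covariate, leaving out the muscle-rich triple tumours, and leaving out each tumour in turn.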

Additional observations from a re-analysis of the deposited data

Results flagged for a closer look

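In groups of 8, a tumour was picked out where its gap to the nearest other took up more of the group's range than Dixon's test allows, which chance does in about 1 in 20 groups; 9 of 114 groups tested did so. In the dual group 6 of them were the same tumour, D_370_S38, at the low end. It lay at 6.89 log2 CPM for Psma3, 6.68 for Psmc2, 6.92 for Psmd14, 7.23 for Psmd7, 6.66 for Psme2 and 5.89 for Uchl5, where the nearest other dual tumours lay at 7.19, 6.98, 7.18, 7.55, 7.16 and 6.18. Vehicle tumour C_339_S25 lay at 7.67 log2 CPM for Psmb6 and 7.10 for Psmd4, above the nearest at 7.35 and 6.96. Triple tumour T_353_S45 lay at 7.97 for Nfe2l1, below the nearest at 8.06.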

How the results depend on the processing

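No paired analysis was possible because each mouse number occurs once. In dual against vehicle, 15 to 30 members were higher and 0 lower under every setting tried. Of all genes, 9.45 to 23.7% were then higher and 9 to 25.5% lower. With 1 tumour left out, 19 to 26 members were higher. The share of all genes is not given for this range or for the later ranges with 1 tumour left out. In triple against vehicle (17 higher, 2 lower), members higher numbered 10 under median centring, 9 under quantile normalization, 11 under the exact Wilcoxon test, 11 with the muscle score as a covariate and 10 at an adjusted p under 0.01. The shares of all genes higher were, in the same order, 19.4, 19.7, 18, 11.5 and 15.8%. The 9 under quantile normalization are 19.1% of members, near that share. Members lower numbered 5 under quantile normalization, and 1 under the Wilcoxon test, the covariate, the stricter threshold and without the muscle-rich triple tumours. The shares of all genes lower were, in the same order, 28.7, 19.4, 11.4, 15 and 15.2%. Leaving out 1 tumour gave 11 to 17 higher and 2 lower. In triple against dual (1 higher, 12 lower), members higher numbered 0 with 2 groups alone, median centring, quantile normalization, the Wilcoxon test, the covariate, the stricter threshold and without the muscle-rich tumours. The shares of all genes higher were, in the same order, 4.3, 9.21, 9.57, 1.9, 0.235, 2.35 and 0.0107%. Members lower numbered 26 with tumour weights, 3 with 2 groups alone, 27 under median centring, 1 under the Wilcoxon test, and 0 with the covariate, without the muscle-rich tumours and at the stricter threshold. The shares of all genes lower were, in the same order, 13, 3.03, 15.9, 2.31, 0.187, 0 and 1.76%. Leaving out 1 tumour gave 0 to 1 higher and 5 to 21 lower. The cause of these moves was not tested, except that fewer tumours remain without the muscle-rich ones.

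The catalytic pair differences kept their calls under quantile normalization and the Wilcoxon test. Without the muscle-rich tumours, differences to vehicle were -0.40, -0.44 and -0.34 and to dual -0.49, -0.39 and -0.21 (Psmb5, Psmb6 and Psmb7 pairs), past no threshold. With 1 tumour left out, the Psmb6 pair in dual against vehicle ran from -0.15 to 0.046.

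Direction turned for small uncalled differences. Against dual, in triple, Psme2 was -0.013 with tumour weights, -0.042 both under median centring and with the covariate, and -0.0041 without the muscle-rich tumours. There too Psmf1 was -0.088 and Pomp -0.051 under median centring, Pomp -0.033 with the covariate and -0.036 without the muscle-rich tumours, Psme1 0.0040 under median-of-ratios scaling and 0.024 without the muscle-rich tumours, and Psme4 0.029 without them. Against vehicle, in triple, Psmg1 was -0.051 under median centring and -0.053 under quantile normalization, Psme4 -0.032 under the latter, Psmb5 0.0082 with the covariate and 0.10 without the muscle-rich tumours, Psme2 -0.0021 with the covariate and Psmb7 0.0056 without the muscle-rich tumours. In dual against vehicle, quantile normalization gave Psmb6 -0.037, Psme2 -0.0074 and Psma7 -0.056. With 1 tumour left out, triple against vehicle ran from -0.081 to 0.046 for Psmb5 and -0.019 to 0.050 for Psmg1. Triple against dual ran from -0.023 to 0.057 for Psmf1, -0.069 to 0.075 for Psme1, -0.022 to 0.15 for Psme2 and -0.024 to 0.11 for Pomp. At 14438318 reads or more per tumour, Psma8 had 0 to 18 reads, Psme2b 28 to 114 and Psmc3ip 66 to 278, so counting error is larger for these genes than for the subunits with more reads.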
